A study of Mus musculus with 22 samples.

Results

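The lasting effect of Gulf War chemicals on the aged mouse brain was examined across both inflammatory states of the vehicle arm, by setting 8 exposed libraries against 6 unexposed libraries out of the 22 in the series. Every library was made from the whole brain of a male C57BL/6J mouse. Exposed mice (GW) had been injected intraperitoneally with permethrin (200 mg/kg) together with pyridostigmine bromide (0.7 mg/kg), and unexposed mice (Ctrl) with vehicle, each day for 10 days from 10 weeks of age. All of these mice were then kept until 17.5 months of age and received injections of the vehicle of cannabidiol (CBD), then a dose of PBS or of lipopolysaccharide (LPS, 0.33 mg/kg), with tissue collected 24 h later. The groups were CtrlVeh (3 libraries, PBS), CtrlVehLPS (3, LPS), GWVeh (4, PBS) and GWVehLPS (4, LPS). The other 8 libraries came from exposed mice given CBD (GWCBD30 and GWCBD30LPS) and enter only as levels given beside the results. As a model, the exposure combined both chemicals in every exposed mouse, so that their effects cannot be told apart, and only males were used.

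Pyridostigmine inhibits acetylcholinesterase, the enzyme that ends cholinergic transmission, and was taken by soldiers as a pretreatment against nerve agents. Permethrin, a pyrethroid insecticide, keeps voltage-gated sodium channels open for longer. LPS, a component of the bacterial cell wall, drives a peripheral immune response that reaches the brain through endothelial cells and microglia. The pooled contrast asks for differences that the exposure left in both states: it estimates 1 exposure term per gene with LPS state as an additive term.

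The 14 libraries held 17.2 to 28.8 M counts (median 21.8 M), 18.8 to 28.8 M in exposed and 17.2 to 27.2 M in unexposed libraries, so that 3 counts corresponded to 0.104 to 0.175 CPM (counts scaled to library size, with TMM factors). The labels number the libraries of a group and give no cage, litter or sequencing batch. That each came from a separate mouse is taken from the study design. CtrlVehLPS replicate 1 stood apart: Gabra6, whose GABA receptor subunit is typical of granule cells in the cerebellum, was at 0 there and at 64.5 to 133 CPM in the other 13 libraries, and 5 tested genes of pancreatic digestive enzymes summed to 129 CPM there against 5.14 to 7.48 CPM elsewhere. Olfactory bulb neuron genes summed to 578 to 639 CPM in CtrlVehLPS, 451 to 477 CPM in CtrlVeh, 479 to 507 CPM in GWVeh and 475 to 594 CPM in GWVehLPS. Choroid plexus genes summed to 966 to 1465 CPM in exposed and 703 to 1378 CPM in unexposed libraries.

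No gene passed an adjusted p of 0.05 in the pooled contrast. Of 19451 genes tested with edgeR's quasi-likelihood test, 0 were called (0%) and 8 had an adjusted p under 0.1 (0.0411%), 3 higher (0.0154%) and 5 lower (0.0257%) in exposed brains. At an unadjusted p under 0.05 there were 1269 genes (6.52%), 598 higher (3.07%) and 671 lower (3.45%). DESeq2 called 17 genes and limma voom 7 at an adjusted p of 0.05 in the same design. The 8 genes were the transcription factor genes Fosl2, Nr4a3 and Npas4, the clock gene Per1, the GTPase gene Arl5b, the tight junction gene Cldn5, the peroxidase gene Gpx3 and the antisense transcript D030047H15Rik. They are described below as values, since none passed.

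Immediate-early genes are switched on within minutes by synaptic activity, hormones or stress, and several encode transcription factors. Fosl2 (chr5:32135801-32157842, GRCm38, plus strand), which encodes the AP-1 subunit FRA2, had the smallest p of all genes. Its level was 43.3, 40.3 and 34.5 CPM in CtrlVeh and 28.5, 21.1, 29.6 and 28.8 CPM in GWVeh. Under LPS it was 41.2, 39.3 and 37.4 CPM in CtrlVehLPS and 32.1, 30.9, 25.01 and 31.6 CPM in GWVehLPS. All 8 exposed libraries lay below all 6 unexposed ones. The pooled log2 difference, exposed minus unexposed, was -0.47 ± 0.08 (SE, adjusted p = 0.05005, edgeR), from means of 28.5 ± 3.71 and 39.3 ± 3.07 CPM (SD, n = 8 and 6). The difference was -0.54 ± 0.11 without LPS and -0.39 ± 0.11 under LPS.

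Nr4a3 and Nr4a1 encode orphan nuclear receptors of the NR4A family, which act as transcription factors without a classical ligand. Nr4a3 (chr4:48045153-48086447, plus strand) was at 40.2, 42.6 and 37.5 CPM in CtrlVeh and at 30.0, 18.9, 22.4 and 26.4 CPM in GWVeh. It was at 32.7, 31.9 and 37.0 CPM in CtrlVehLPS and at 25.1, 30.0, 17.6 and 20.99 CPM in GWVehLPS, again with no overlap between exposed and unexposed libraries. The pooled difference was -0.62 ± 0.11 (adjusted p = 0.0846), the steepest among the 8 genes. Nr4a1 (chr15:101254269-101274795, plus strand), which was chosen after its values were seen, ran from 48.6 to 93.5 CPM in exposed libraries (median 72.0) and from 89.5 to 116 CPM in unexposed ones (median 100.1). These ranges overlapped, through GWVeh replicate 4, and the difference was -0.52 ± 0.11 (adjusted p = 0.383).

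Per1 (chr11:69095217-69109960, plus strand), a repressor in the circadian clock that glucocorticoids and neuronal activity also induce, was at 111, 117 and 111 CPM in CtrlVeh and 119, 122 and 132 CPM in CtrlVehLPS. It was at 113, 85.7, 87.8 and 94.8 CPM in GWVeh and 97.3, 104, 90.1 and 86.4 CPM in GWVehLPS, so that GWVeh replicate 1 alone reached into the range of the unexposed libraries. The pooled difference was -0.32 ± 0.06 (adjusted p = 0.0590). Over the 14 fits that each left out 1 library, the adjusted p of Per1 in edgeR was 0.0811 to 0.283 in 13 and 0.00489 without GWVeh replicate 1, the library that overlapped.

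Npas4 (chr19:4984355-4990316, minus strand), a neuronal transcription factor induced by calcium entry, had the opposite sign. Its levels were 14.02, 21.4 and 15.98 CPM in CtrlVeh, 20.9, 28.2, 24.3 and 27.0 CPM in GWVeh, 13.4, 13.7 and 17.6 CPM in CtrlVehLPS and 20.3, 18.6, 19.7 and 22.7 CPM in GWVehLPS. Groups did not overlap under LPS and did without it, where CtrlVeh replicate 2 lay above GWVeh replicate 1. The pooled difference was 0.50 ± 0.09 (adjusted p = 0.0590). Over all genes, 4.79% did not overlap without LPS with exposed libraries higher and 4.74% with them lower, and 2.8% and 2.62% under LPS.

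The promoters of 3 of these genes are shown, those whose windows did not open within a GENCODE M21 exon. They were searched for TGACG, a part of the cAMP response element through which many immediate-early genes are induced. The sequences are taken from RefSeq promoter windows of GRCm38.p6, 5′ to 3′ on the gene's plus strand, starting 250 bases before the start site and stopping before the next exon in GENCODE M21. For Nr4a1 and Per1 a longer M21 transcript starts further upstream, so that these stretches lie in an intron of that transcript. Capitals mark TGACG and its reverse complement CGTCA. The stretches are chr15:101266596-101266845 for Nr4a1, chr4:48045055-48045152 for Nr4a3 and chr11:69098699-69098947 for Per1 (the more upstream of 2 start sites in the table).
Nr4a1: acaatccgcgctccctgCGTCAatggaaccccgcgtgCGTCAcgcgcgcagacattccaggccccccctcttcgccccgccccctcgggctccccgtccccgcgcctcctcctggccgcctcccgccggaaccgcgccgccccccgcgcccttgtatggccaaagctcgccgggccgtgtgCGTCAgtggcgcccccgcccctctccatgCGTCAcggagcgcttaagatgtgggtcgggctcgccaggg
Nr4a3: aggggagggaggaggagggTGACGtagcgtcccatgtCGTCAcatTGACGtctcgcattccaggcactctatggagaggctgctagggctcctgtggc
Per1: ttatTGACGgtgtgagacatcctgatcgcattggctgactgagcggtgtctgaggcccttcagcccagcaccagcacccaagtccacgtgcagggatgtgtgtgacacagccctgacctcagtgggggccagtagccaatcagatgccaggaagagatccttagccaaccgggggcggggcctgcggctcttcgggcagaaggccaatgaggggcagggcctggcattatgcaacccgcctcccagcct
In the 250 bases before the start site, Nr4a1 and Nr4a3 each held 4 matches, counting both strands (for Nr4a3, 3 lie in the stretch shown). Npas4 held 2, Per1 held 1 and Fosl2 held 0, but the windows of Npas4 and Fosl2 open within GENCODE M21 exons. For that reason no stretch of Npas4 or Fosl2 is shown. A match stood in 17.9% of 27025 promoters of that length and in 14 of the 21 immediate-early genes of the list below that had a promoter in the table. A match to TGACG is a description of letters. It was held by lower genes and by Npas4, the higher one of these, there in a window that opens within an exon. In the same 250 bases, the full cAMP response element had 0 matches in each of Fosl2, Per1, Nr4a3, Nr4a1 and Npas4.

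Of 27 immediate-early genes, all of them tested, 23 had negative and 4 positive log2 differences. At an unadjusted p under 0.05 (edgeR) 10 members were lower and 2 higher, 44.4% of the list beside 6.52% of all genes. The median difference was -0.15, against 0.0019 over all genes tested, and 0 members passed an adjusted p of 0.05. After the members above, the lower ones were the nuclear receptor gene Nr4a2 (-0.26 ± 0.08), the dendritic gene Arc (-0.41 ± 0.12), the AP-1 gene Junb (-0.23 ± 0.07), the zinc finger gene Egr2 (-0.67 ± 0.22), the phosphatase gene Dusp6 (-0.22 ± 0.09) and the kinase gene Sik1 (-0.21 ± 0.09). Jund was the other higher member (0.19 ± 0.08). Fos (-0.29 ± 0.19), Egr1 (-0.15 ± 0.11) and Bdnf (-0.15 ± 0.14), much used activity markers, did not reach an unadjusted p of 0.05. The median was -0.15 without LPS and -0.21 under LPS, in contrasts that share no library. The list was picked for description after values were seen, which favours medians of equal sign. Summed levels of the list ran from 1023 to 1346 CPM in exposed and from 1258 to 1513 CPM in unexposed libraries. With the choroid plexus score as a covariate, 5 members were lower in place of 10, and Fosl2 stood at -0.37 (adjusted p = 0.397).

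**Figure D1:**
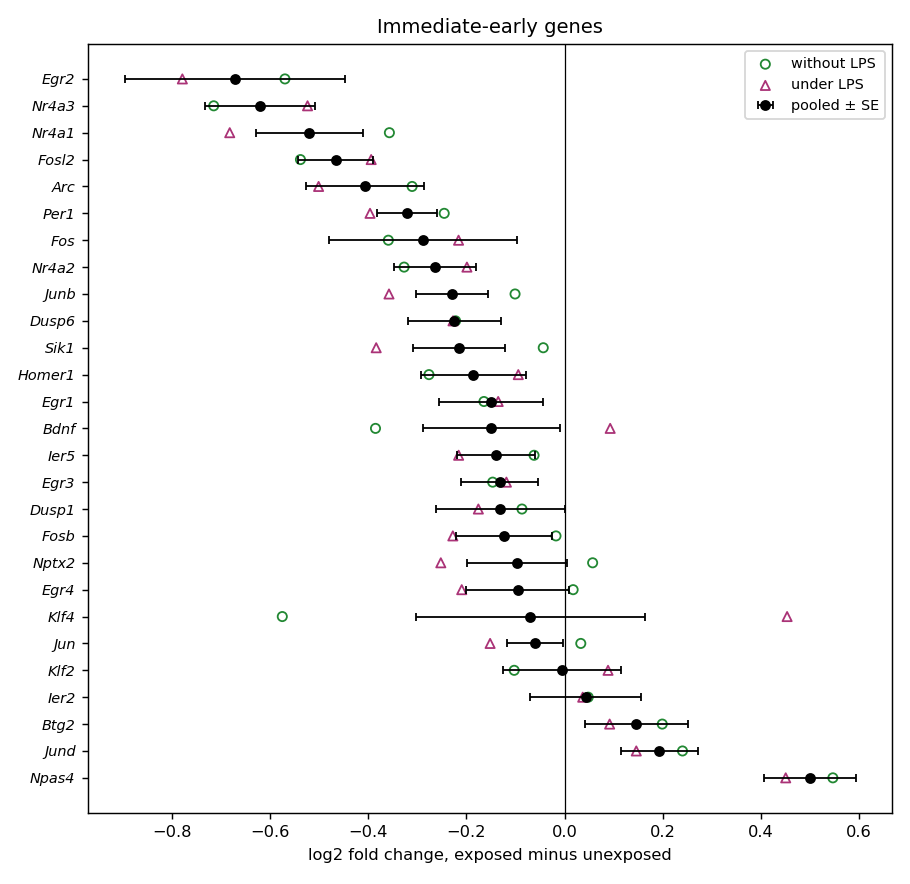
Log2 difference between exposed and unexposed libraries for 27 immediate-early genes, with the pooled estimate (filled circles, bars are the SE), the difference without LPS (open circles) and under LPS (triangles). Pooled estimates lie left of 0 for 23 genes, and Npas4 lies farthest to the right.

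Of the other lower genes among the 8, Arl5b (chr2:15049395-15082456, plus strand) encodes a small GTPase of membrane traffic. It was at 34.8, 40.3 and 34.4 CPM in CtrlVeh, 22.1, 25.2, 26.1 and 28.1 CPM in GWVeh, 30.3, 30.2 and 30.4 CPM in CtrlVehLPS and 28.3, 23.8, 25.8 and 24.4 CPM in GWVehLPS. All exposed libraries lay below all unexposed ones, with a pooled difference of -0.39 ± 0.07 (adjusted p = 0.0590). The difference was -0.52 ± 0.09 without LPS and -0.24 ± 0.09 under LPS, and the test of that gap gave 0.28 ± 0.13 (adjusted p = 0.664). D030047H15Rik (chr7:4126340-4136926, minus strand), an antisense gene that overlaps Ttyh1, ran from 6.20 to 9.78 CPM in exposed and from 10.8 to 12.97 CPM in unexposed libraries, without overlap (-0.48 ± 0.09, adjusted p = 0.0590). Because the strand setting of the counting is not given, its reads cannot be told apart from those of Ttyh1. The same holds for Arl5b and Nsun6, which overlaps Arl5b on the opposite strand. Gm38257 overlaps Arl5b on the same strand, so that reads in the shared bases could be counted to either gene.

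Cldn5 (chr16:18776847-18778262, plus strand) encodes claudin-5, the main tight junction protein between endothelial cells of the blood-brain barrier. Its level was 13.1, 10.7 and 15.7 CPM in CtrlVeh, 21.9, 18.8, 18.5 and 16.05 CPM in GWVeh, 15.7, 13.5 and 18.1 CPM in CtrlVehLPS and 19.7, 25.2, 25.8 and 21.04 CPM in GWVehLPS. Exposed libraries lay above unexposed ones within each state, and the pooled difference was 0.52 ± 0.10 (adjusted p = 0.0590). The difference was 0.51 without LPS and 0.54 under LPS. Of 25 endothelial identity genes, 2 were higher and 0 lower at an unadjusted p under 0.05 (8%, beside 6.52% of all genes). These were Cldn5 and the VEGF receptor gene Kdr (0.27 ± 0.13, adjusted p = 0.758). The list's median was 0.02, and the cadherin gene Cdh5 had 0.22 ± 0.11 (adjusted p = 0.758). Over left-out libraries the list's higher members numbered 1 to 5, with 5 without GWVeh replicate 4. In whole brain RNA, more cells of a type and more RNA per cell cannot be told apart. With the choroid plexus score as a covariate Cldn5 stood at 0.45 (adjusted p = 0.548).

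Gpx3 (chr11:54902453-54910377, plus strand) encodes a secreted glutathione peroxidase that removes hydrogen peroxide. It was at 14.8, 15.3 and 14.9 CPM in CtrlVeh and 24.7, 27.3, 23.8 and 15.4 CPM in GWVeh. Under LPS it was at 21.97, 25.8 and 28.6 CPM in CtrlVehLPS and 41.6, 35.8, 32.6 and 33.4 CPM in GWVehLPS. Within each state the groups did not overlap, although GWVeh replicate 4 lay just above CtrlVeh. The pooled difference was 0.55 ± 0.10 (adjusted p = 0.0590). Over the 14 fits that each left out 1 library, the adjusted p of Gpx3 in edgeR was 0.0641 to 0.27 in 13 and 0.001 without GWVeh replicate 4, the lowest exposed library.

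**Figure D2:**
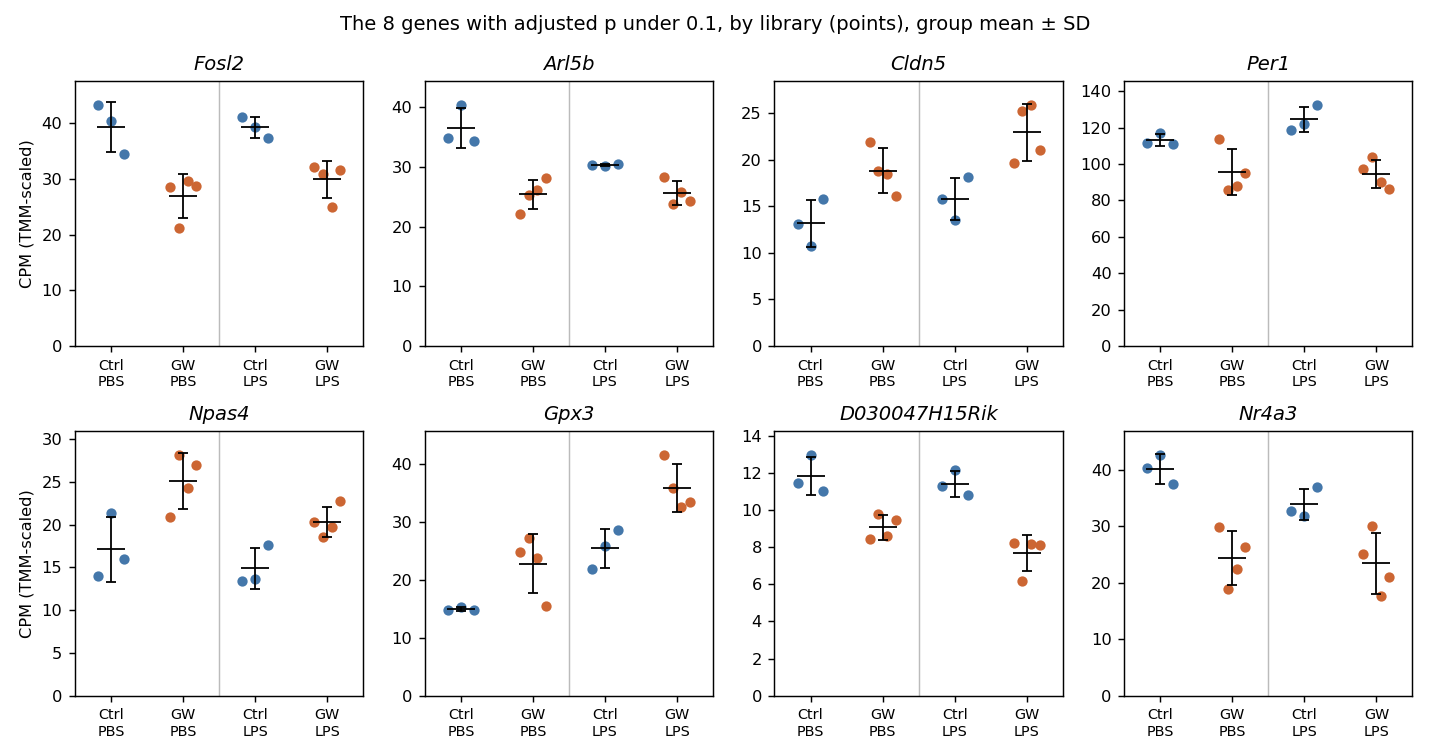
Level in each library (points, CPM) of the 8 genes with an adjusted p under 0.1, by group, with the group mean and SD (n = 3 for Ctrl, 4 for GW). Fosl2, Arl5b, D030047H15Rik and Nr4a3 show no overlap between the 8 exposed and 6 unexposed libraries.

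Further genes were named for the smallest p in each direction. Tspo, the mitochondrial translocator protein used as an imaging marker of glial activation, ran from 3.25 to 5.33 CPM in unexposed (median 3.89) and from 3.89 to 8.54 CPM in exposed libraries (median 5.98). Its groups did not overlap within a state, and the difference was 0.55 ± 0.13 (adjusted p = 0.282). Trpv4, a calcium-permeable cation channel, had 0.63 ± 0.16 (adjusted p = 0.635), with 0.21 without LPS and 1.05 under LPS. The mitochondrial tRNA gene mt-Tn had 0.55 ± 0.14 and the antisense gene A730035I17Rik, which overlaps Prdm8, 1.36 ± 0.35 at levels of 0.0923 to 0.370 CPM in unexposed and 0.481 to 1.12 CPM in exposed libraries. On the lower side were 2610008E11Rik (-0.29 ± 0.06, adjusted p = 0.142), the RNA-binding protein gene Rbm24 (-0.34 ± 0.08, adjusted p = 0.282) and Rn7sk, a small nuclear RNA that holds back transcription elongation (-0.86 ± 0.18, adjusted p = 0.169). Rn7sk has many near-identical copies in the genome, so its count is uncertain.

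The 8 exposed and 6 unexposed libraries did not overlap for 17 genes (0.0874%), of which 5 were higher (0.0257%) and 12 lower (0.0617%). Beside Fosl2, Arl5b, Nr4a3 and D030047H15Rik the lower ones included the ubiquitin ligase gene Hectd2 (-0.43 ± 0.10, adjusted p = 0.304) and the signalling gene Smad2 (-0.12 ± 0.05, adjusted p = 0.758). The higher ones included the lysophosphatidic acid receptor gene Lpar2 (0.56 ± 0.19, adjusted p = 0.708) and Isca2, which serves iron-sulfur cluster assembly (0.18 ± 0.06, adjusted p = 0.708). These 4 were picked after their values were seen. Within both states and in the same direction, 46 genes did not overlap (0.236%), 17 higher (0.0874%) and 29 lower (0.149%).

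The genes that encode the textbook targets of both chemicals showed no difference past a test. Ache, which encodes acetylcholinesterase, ran from 108 to 137 CPM in exposed and from 94.4 to 132 CPM in unexposed libraries. The ranges overlapped, and the difference was 0.10 ± 0.06 (adjusted p = 0.773), with p = 0.187 in a two-sided exact permutation test over 1225 arrangements within LPS state (0.623 after adjustment over 10 genes). Bche, which encodes butyrylcholinesterase, a second esterase that pyridostigmine inhibits, ran from 4.24 to 8.22 CPM in exposed and from 5.12 to 9.69 CPM in unexposed libraries (-0.15 ± 0.13, adjusted p = 0.826). Of the sodium channel alpha subunit genes, the major brain channels had -0.05 ± 0.05 (Scn1a), -0.09 ± 0.05 (Scn2a), -0.18 ± 0.10 (Scn3a) and -0.04 ± 0.05 (Scn8a). Scn7a, Scn9a and Scn10a lay between -0.06 and 0.34, and Scn4a and Scn11a did not pass the filter on low counts. In the exact permutation tests the lowest adjusted p of the 10 genes was 0.623. Scn3a had 0.03 without LPS and -0.39 under LPS, and the gap was -0.42 (adjusted p = 0.624).

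Among 26 genes of cholinergic enzymes, transporters and receptors, 2 were higher and 0 lower at an unadjusted p under 0.05. These were Prima1, the membrane anchor of brain acetylcholinesterase (0.32 ± 0.13), and the nicotinic receptor subunit gene Chrnb2 (0.10 ± 0.05, adjusted p = 0.758 for both, edgeR). The neurotrophin receptor gene Ngfr, of cholinergic neurons, had 0.26 ± 0.14. Of 15 sodium channel and channel partner genes tested, 0 were higher and 1 lower, the channel-binding factor gene Fgf12 (-0.16 ± 0.07). Of 19 xenobiotic metabolism genes tested of 30 listed, 2 were higher and 0 lower, the glutathione transferase genes Gstm1 (0.19 ± 0.08) and Gsta4 (0.14 ± 0.06). Gstt1 had 0.14 ± 0.09. Shares of 7.69%, 6.67% and 10.5% of these lists stand beside 6.52% of all genes. The higher cholinergic genes numbered 0 without CtrlVehLPS replicate 1, and the lower ones 2 without CtrlVeh replicate 3. The lower sodium channel genes numbered 0 in 8 of the 14 fits that left out 1 library and 3 without GWVeh replicate 4.

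Pooling assumes that the exposure difference is alike in both states, and the states were set side by side in contrasts that share no library. Without LPS 0 genes passed (0%), with 2 under an adjusted p of 0.1 (0.0103%), 1 higher (0.00514%) and 1 lower (0.00514%). At an unadjusted p under 0.05 there were 1534 (7.89%), 831 higher (4.27%) and 703 lower (3.61%). Under LPS 0 passed (0%), 0 were under 0.1 and 1261 had an unadjusted p under 0.05 (6.48%), 604 higher (3.11%) and 657 lower (3.38%). DESeq2 called 6 and 23 genes in these contrasts. Over all 19451 genes the log2 differences of the states had the same sign in 9883 (50.8%), with a Pearson correlation across genes of 0.0017, given as a description since genes share libraries. Of the 1534 genes at an unadjusted p under 0.05 without LPS, 765 kept their sign under LPS (49.9%), and of the 1261 genes under LPS 620 had the same sign without it (49.2%). At an unadjusted p under 0.001 the counts were 17 of 32 and 23 of 40. All 8 genes above had the same sign in both states, which their choice by a small pooled p favours.

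**Figure D3:**
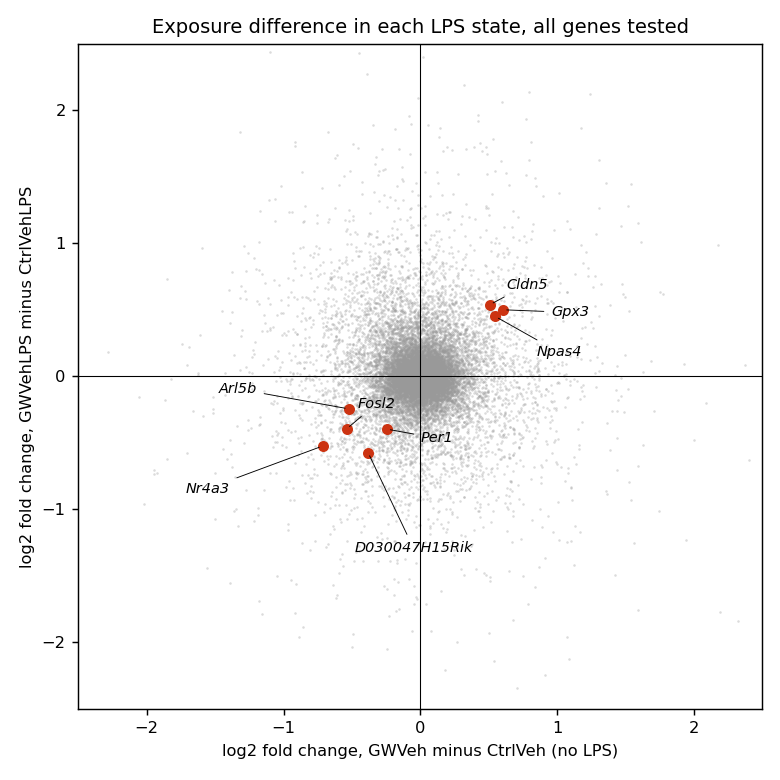
Log2 difference, exposed minus unexposed, without LPS (horizontal) and under LPS (vertical) for the genes tested, 1 point per gene, with 13 genes outside the axes. The cloud is round about 0, and the 8 genes with a pooled adjusted p under 0.1 (red) lie in the quadrants of equal sign.

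The interaction of exposure and LPS gave 0 genes past an adjusted p of 0.05 (0%) and 1421 at an unadjusted p under 0.05 (7.31%), 685 with a positive term (3.52%) and 736 with a negative term (3.78%), and DESeq2 called 5. The smallest p values belonged to Olfm3, a secreted olfactomedin (-0.37 without LPS, 0.25 under LPS), Cntnap3, an adhesion protein of the contactin-associated family (0.30 and -0.70), and Hap1, the huntingtin-associated protein (0.41 and -0.08). Their interaction terms were 0.61, -1.0 and -0.50 (adjusted p = 0.385 each, edgeR). Hap1 was at 205, 201 and 185 CPM in CtrlVeh and at 256, 294, 276 and 225 CPM in GWVeh, and under LPS at 246 to 259 CPM in CtrlVehLPS and 231 to 252 CPM in GWVehLPS. Pooled, it had 0.16 ± 0.08 (adjusted p = 0.758).

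Glucocorticoid-responsive genes had 0 higher and 6 lower members of 22 at an unadjusted p under 0.05 (27.3%, beside 6.52% of all genes), with a median of -0.12. Beside Per1 these were Tsc22d3, a glucocorticoid-induced leucine zipper gene (-0.18 ± 0.05, adjusted p = 0.635), Ddit4, a brake on mTOR signalling (-0.21 ± 0.07, adjusted p = 0.699), the kinase gene Sgk1 (-0.41 ± 0.13), Klf9 (-0.12 ± 0.05) and Hif3a (-0.36 ± 0.17). Tsc22d3 was at 63.0, 66.0 and 67.7 CPM in CtrlVeh and at 54.4 to 59.8 CPM in GWVeh, without overlap, and at 78.1 to 80.4 CPM in CtrlVehLPS and 66.6 to 78.4 CPM in GWVehLPS. Leaving out each library in turn gave 4 to 7 lower members, the fewest without CtrlVeh replicate 2. Without LPS 0 members were higher and 5 lower (median -0.14), and under LPS 2 were higher and 6 lower (median -0.03). The circadian clock list had 0 higher and 2 lower of 22 (9.09%), Per1 and the nuclear receptor gene Nr1d2 (-0.12 ± 0.06), with the clock kinase gene Csnk1e at -0.09 ± 0.05. Over left-out libraries its lower members numbered 1 to 5, with 5 without CtrlVehLPS replicate 1. Clock genes numbered 0 higher and 5 lower without LPS, and 3 higher and 1 lower under LPS. Beside both lists, 4.27% of all genes were higher and 3.61% lower without LPS, and 3.11% and 3.38% under LPS. Per1 stands in the immediate-early, glucocorticoid and clock lists.

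Genes of cold-inducible and RNA-binding proteins had 0 higher and 6 lower members of 20 (median -0.07, 30% of the list, beside 6.52% of all genes). Without LPS 7 were lower (median -0.13) and under LPS 0 (median -0.04), a gap that was not tested for the list. Of all genes, 3.61% were lower without LPS and 3.38% under LPS. The pooled members were the splicing kinase genes Clk1 (-0.29 ± 0.09, adjusted p = 0.667) and Clk4 (-0.20 ± 0.08) and the splicing factor genes Tra2a (-0.15 ± 0.06), Tra2b (-0.14 ± 0.05), Hnrnph1 (-0.13 ± 0.06) and Srsf3 (-0.11 ± 0.05). Clk1 was at 118 to 133 CPM in CtrlVeh and 86.1 to 115 CPM in GWVeh, without overlap, and at 101 to 113 CPM in CtrlVehLPS and 71.3 to 111 CPM in GWVehLPS. Without CtrlVeh replicate 2 the lower members numbered 2, and with the choroid plexus score as a covariate 3.

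Mitochondrially encoded genes had the largest share past an unadjusted p of 0.05 of the lists described. It was 8 higher and 0 lower of 15 (53.3%, beside 6.52% of all genes), with a median of 0.18. Without LPS 1 was higher (median 0.10) and under LPS 6 (median 0.33), where 4.27% and 3.11% of all genes were higher. Among them were the complex I genes mt-Nd5 (0.24 ± 0.07, adjusted p = 0.635) and mt-Nd6 (0.31 ± 0.09, adjusted p = 0.681) and the ATP synthase genes mt-Atp8 (1.08 ± 0.34) and mt-Atp6 (0.87 ± 0.34). Few reads were counted to mt-Atp8, with an average log2 CPM of 0.80 against 11.7 for mt-Nd5. mt-Nd5 was at 2993 to 3573 CPM in CtrlVeh and 2990 to 3903 CPM in GWVeh, which overlapped, and at 2674 to 2926 CPM in CtrlVehLPS and 3462 to 4103 CPM in GWVehLPS, which did not. mt-Nd5 and mt-Nd6 overlap only at their ends, on opposite strands, and mt-Atp8 overlaps mt-Atp6 on the same strand, so that reads in the shared bases could be counted to either gene. The mitochondrial share of all counts was 3.93% to 5.04% in exposed and 3.98% to 4.68% in unexposed libraries. Without CtrlVeh replicate 1 there were 5 higher members. The 74 nuclear-encoded oxidative phosphorylation genes had 0 higher and 0 lower, and their members with the smallest p were Ndufb6 (0.11 ± 0.06), Ndufs5 (-0.11 ± 0.06) and Ndufv1 (0.08 ± 0.05).

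No gene of the immune and glial lists passed, and their shares at an unadjusted p under 0.05 stand beside 6.52% of all genes. Interferon-stimulated genes had 7 higher and 0 lower of 39 (17.9%, median 0.19, but -0.03 without LPS and 0.39 under LPS), led by the peptide transporter gene Tap1 (0.45 ± 0.13, adjusted p = 0.666), Oasl2 (0.39 ± 0.14) and Oas1a (0.64 ± 0.26). MHC and antigen presentation genes had 5 higher and 0 lower of 18 (27.8%, median 0.15), with Tap1, the class I heavy chain genes H2-K1 (0.22 ± 0.08) and H2-D1 (0.24 ± 0.10), and B2m (0.14 ± 0.06). Activated and disease-associated microglia genes had 5 higher and 0 lower of 30 (16.7%, median 0.13), with osteopontin, Spp1 (0.27 ± 0.08, adjusted p = 0.661), the lipase gene Lpl (0.20 ± 0.09) and the cathepsin gene Ctsd (0.12 ± 0.06) in front. Without LPS 2 of them were higher and 1 lower (median 0.02), and under LPS 8 were higher and 0 lower (median 0.26). Shares of all genes were 4.27% higher and 3.61% lower without LPS, and 3.11% and 3.38% under LPS. Homeostatic microglia genes had 2 higher (Olfml3, 0.24 ± 0.09, and Sparc, 0.23 ± 0.09) and 2 lower (Mertk, -0.15 ± 0.06, and Tgfbr1, -0.18 ± 0.08) of 23. The lower count was 0 without CtrlVehLPS replicate 1, GWVeh replicate 1 or GWVeh replicate 3. The complement list had 1 higher and 0 lower of 18 (5.56%), the inhibitor gene Cd59a (0.19 ± 0.08). Over left-out libraries its higher members numbered 0 to 6, with 6 without GWVeh replicate 4. They numbered 0 without CtrlVehLPS replicate 1, GWVeh replicate 2 or GWVehLPS replicate 2. With all 14 libraries C1qb had 0.12 ± 0.06 and C1qa 0.11 ± 0.06, short of an unadjusted p of 0.05. Cytokine, chemokine and NF-kB genes had 0 higher and 0 lower of 25, and Tnfrsf1b (0.27 ± 0.13), Cxcl12 (0.21 ± 0.11) and Tnfrsf1a (0.21 ± 0.11) had the smallest p.

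Tap1 ran from 3.02 to 5.10 CPM in unexposed and from 4.34 to 6.59 CPM in exposed libraries, with overlap. H2-D1 was at 60.1 to 69.8 CPM in CtrlVeh and 59.96 to 73.2 CPM in GWVeh, and at 48.2, 73.3 and 71.5 CPM in CtrlVehLPS against 88.2, 90.1, 78.2 and 90.5 CPM in GWVehLPS. Endothelial activation and acute-phase genes had 2 higher and 0 lower of 23 (8.7%, beside 6.52% of all genes), Saa3 and Sele (adjusted p = 0.699 and 0.758), and the count was 1 in 8 of the 14 fits that left out 1 library. Saa3, an acute-phase gene, stood at 0 to 0.114 CPM in the PBS libraries, under the floor of 3 counts, and at 0.259, 0.563 and 0.0586 CPM in CtrlVehLPS and 2.87, 0.588, 0.643 and 1.60 CPM in GWVehLPS. Steap4 had 0.63 ± 0.37 (adjusted p = 0.761). Without GWVehLPS replicate 2 the higher members of the activated microglia list numbered 1, without CtrlVeh replicate 3 the higher interferon genes numbered 13, and without CtrlVehLPS replicate 1 or GWVehLPS replicate 1 they numbered 4. MHC members numbered 3 without any of CtrlVeh replicate 1, CtrlVehLPS replicate 1, GWVeh replicate 3 and GWVehLPS replicate 2, each left out in turn.

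The median of 33 reactive astrocyte genes was 0.19, with 0.02 without LPS and 0.37 under LPS. Of these genes 6 were higher and 0 lower at an unadjusted p under 0.05 (18.2%, beside 6.52% of all genes). They included the matrix gene Fbln5 (0.49 ± 0.17), the protease inhibitor gene Serpina3n (0.32 ± 0.13), the immunoproteasome gene Psmb8 (0.41 ± 0.18) and Vim (0.34 ± 0.16), each with an adjusted p of 0.758. Astrocyte identity genes had 4 higher and 0 lower of 21 (19%). They were led by the transcription factor gene Sox9 (0.27 ± 0.07, adjusted p = 0.635), Clu (0.15 ± 0.05) and Ntsr2 (0.15 ± 0.06). Sox9 was at 30.4 to 33.6 CPM in CtrlVeh and 29.3 to 36.4 CPM in GWVeh, and at 28.1 to 28.9 CPM in CtrlVehLPS and 36.7 to 44.6 CPM in GWVehLPS. Only under LPS did its groups not overlap, and the gap between states was 0.43 (adjusted p = 0.531). Without CtrlVeh replicate 2 the higher astrocyte identity genes numbered 2, and without CtrlVehLPS replicate 3 or GWVeh replicate 4 they numbered 7. Reactive astrocyte members numbered 2 without CtrlVehLPS replicate 1, GWVehLPS replicate 1 or GWVehLPS replicate 2.

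Antioxidant genes of the NRF2 list had 7 higher and 0 lower of 37 (18.9%, beside 6.52% of all genes, median 0.05). Beside Gpx3 these were the extracellular superoxide dismutase gene Sod3 (0.25 ± 0.09, adjusted p = 0.750), Gpx1 (0.37 ± 0.14), the ferritin genes Fth1 (0.19 ± 0.08) and Ftl1 (0.13 ± 0.06), Gstm1 and Gsta4. Myelinating oligodendrocyte genes had 5 higher and 0 lower of 26 (19.2%, median 0.14). Among them were the lipid hydroxylase gene Fa2h (0.21 ± 0.07, adjusted p = 0.667) and the myelin transcription factor gene Myrf (0.19 ± 0.06). Antioxidant members numbered 4 without CtrlVehLPS replicate 1. Without GWVeh replicate 4 the higher myelin genes numbered 13, and without GWVeh replicate 2 they numbered 3. Cholesterol synthesis genes had 0 higher and 4 lower of 25 (16%, median -0.07). Among them were the sterol demethylase gene Cyp51 (-0.15 ± 0.06), Sc5d (-0.12 ± 0.05) and Msmo1 (-0.12 ± 0.05), each with an adjusted p of 0.758. Without GWVehLPS replicate 2 the lower members numbered 7, and without GWVehLPS replicate 1 they numbered 2.

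Markers of tissue not spread evenly over the libraries stood beside these lists. Choroid plexus genes had 25 positive of 26 (median 0.26). At an unadjusted p under 0.05, 6 were higher and 0 lower (23.1%, beside 6.52% of all genes). Their defining gene Ttr, which encodes transthyretin, was present in every library, at 368 to 693 CPM in exposed and 244 to 591 CPM in unexposed ones (0.37 ± 0.21, adjusted p = 0.771). With the choroid plexus score as a covariate the higher members numbered 0 for reactive astrocytes and myelin, 2 for interferon and MHC genes and 3 for mitochondrial and antioxidant genes, and the lower ones 0 for cholesterol synthesis and 4 for glucocorticoid genes. The higher members numbered 1 for astrocyte identity, 2 for activated microglia and 0 for cholinergic and complement genes, and homeostatic microglia genes had 0 in either direction. The lower circadian clock genes numbered 4, up from 2. The share of all genes in that fit is not given beside these counts or the earlier ones with this score. A change in a count is thus not read as particular to a list. Hypothalamic regional genes had 5 higher and 0 lower of 19 (26.3%, median 0.29, with 0.60 without LPS and 0.00 under LPS). Gpx3 and Hap1, described above, stand in this list. The 23 cerebellar genes had 0 higher and 0 lower, with medians of -0.26 without LPS and 0.57 under LPS. They summed to 1128 to 3219 CPM in CtrlVehLPS and 3096 to 3977 CPM in GWVehLPS. Hba-a1, a globin gene of red blood cells, was at 276 CPM in GWVeh replicate 1 and 42.7 to 95.8 CPM in the other 13 libraries. The part of the hypothalamic, cerebellar and red blood cell markers in the results was not tested.

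**Figure D4:**
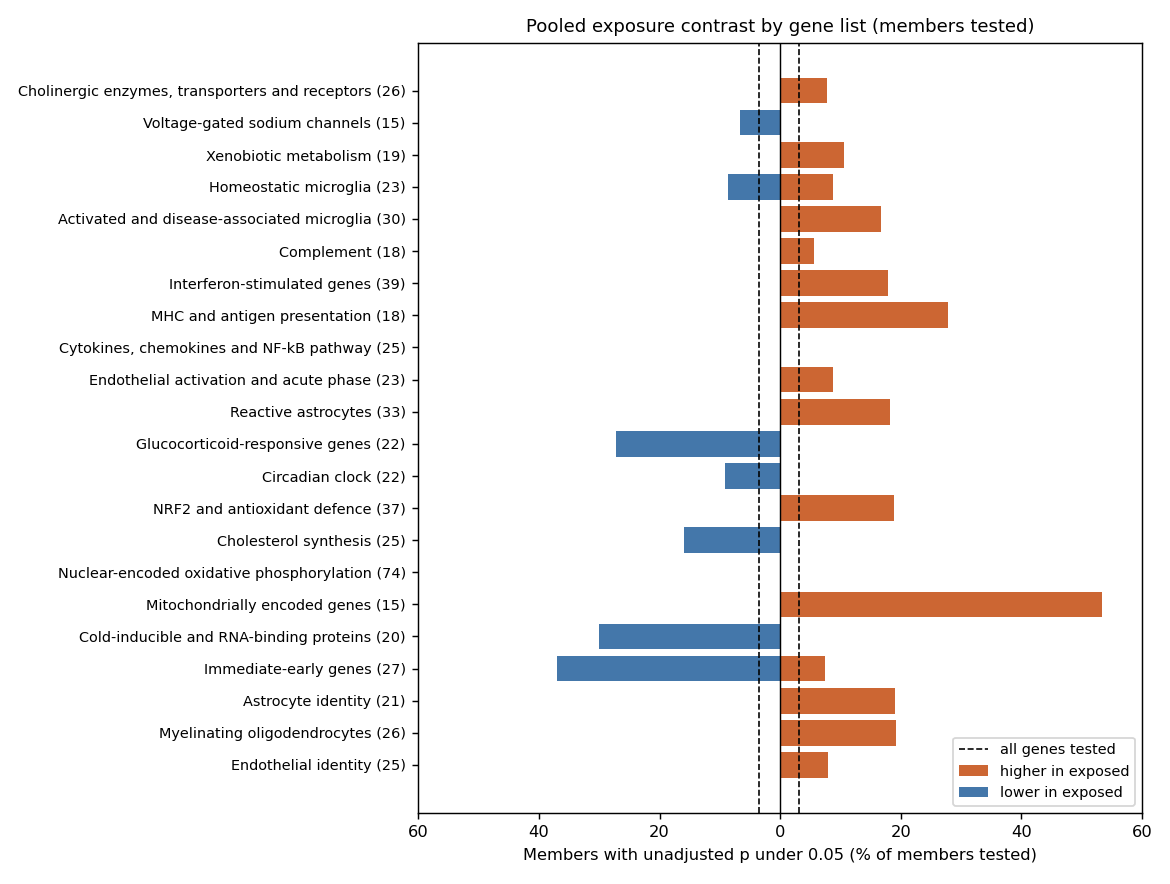
Share of the tested members of 22 gene lists with an unadjusted p under 0.05 in the pooled contrast, higher in exposed brains to the right and lower to the left, with the number tested in parentheses. Dashed lines mark all genes tested (3.07% and 3.45%), and immediate-early genes reach farthest to the left and mitochondrially encoded genes to the right.

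Ppia and Gm10123, which were chosen after their values were seen, differed in opposite directions. Ppia encodes cyclophilin A and is widely used as a reference gene. It had -0.40 ± 0.10 (adjusted p = 0.635, edgeR) and was at 284 to 444 CPM in exposed and 402 to 502 CPM in unexposed libraries. Gm10123, a processed pseudogene of 490 bases, had 1.49 ± 0.37, at 31.1 to 168 CPM in exposed and 34.2 to 51.2 CPM in unexposed libraries. All 490 bases of Gm10123 occur in the transcript Ppia-202 (GENCODE M21), so that reads of the pair can be counted to either. Their summed level was 412 to 521 CPM in exposed and 444 to 545 CPM in unexposed libraries, with a difference of -0.10 ± 0.06 (adjusted p = 0.761). Gm10123 took 6.54% to 36.6% of the sum in exposed and 6.78% to 10.5% in unexposed libraries, and 2 exposed libraries, GWVeh replicate 3 and GWVehLPS replicate 3, were near the unexposed ones (6.54% and 11.8%).

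**Figure D5:**
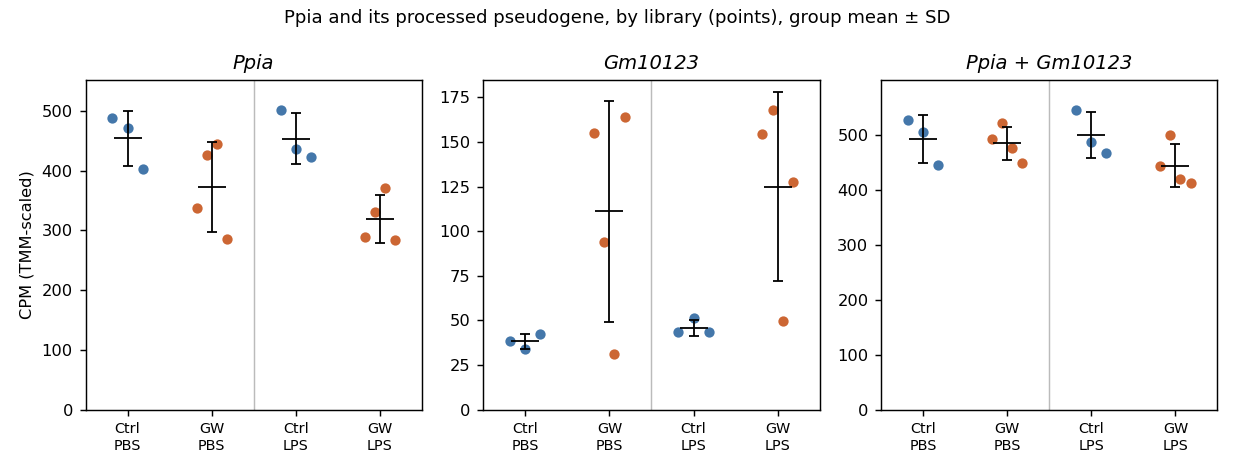
Level in each library (points, CPM) of Ppia, of its pseudogene Gm10123 and of their sum, by group, with the group mean and SD (n = 3 for Ctrl, 4 for GW). Gm10123 exceeds 90 CPM in 6 of 8 exposed libraries, and the sums overlap.

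The exposed mice given CBD were not part of the contrast, and their levels in CPM are set beside the others without a test (mean ± SD, n = 4 each, scaled over 22 libraries). Fosl2 was at 34.0 ± 2.92 in GWCBD30 and 31.5 ± 4.02 in GWCBD30LPS, and Nr4a3 at 26.8 ± 1.87 and 27.9 ± 4.48. Per1 was at 96.0 ± 10.1 and 107 ± 5.87, and Npas4 at 19.4 ± 6.24 and 17.7 ± 3.71. Cldn5 was at 15.5 ± 1.38 and 15.2 ± 1.71, where GWVeh and GWVehLPS had means of 18.8 and 22.9 and CtrlVeh and CtrlVehLPS 13.2 and 15.8 on the scale of the 14 libraries. Gpx3 was at 17.7 ± 3.94 and 25.8 ± 3.93, and Tspo at 3.92 ± 0.602 and 4.35 ± 0.696. D030047H15Rik was at 11.99 ± 0.923 in GWCBD30 and 9.16 ± 1.31 in GWCBD30LPS.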

How the data were processed

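Whole-brain RNA was sequenced as poly(A)-enriched stranded libraries with paired reads of 150 bases, with RNA integrity numbers of 8.5 or more, per the labels. The authors deposited raw read counts per gene, aligned to GRCm38 (mm10) per the submitters' processing notes. The aligner, the counting tool, its strand setting and the annotation were not given in the sources used here.

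The 14 vehicle libraries (17.2 to 28.8 M counts) were scaled by TMM in edgeR 4.0.16 (R 4.3.3). Of 56748 genes, 19451 passed edgeR's expression filter over the 4 groups. The quasi-likelihood test with robust dispersions was fitted with exposure and LPS state as additive terms (11 residual degrees of freedom), and p-values were adjusted by Benjamini-Hochberg at 0.05. The differences within each state and the interaction came from a fit of 4 group means (10 residual degrees of freedom). CPM were computed from the counts, and the SE was derived from the log2 difference and its F statistic. Ache, Bche and the sodium channel genes also had exact permutation tests within LPS state. Precision covers counting error down to a floor of 3 counts. The procedure was tested on simulated data.

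Named were the 6 genes with the smallest p in each direction, the 3 members with the smallest p in each list described, the chemical targets and the 3 genes with the smallest interaction p. Nr4a1, Ppia, Gm10123, Ttr, Gabra6, Hba-a1, Fos, Egr1, Bdnf, the genes named for not overlapping and further list members at an unadjusted p under 0.05 were chosen after their values were seen. The contrast, the members and the 51 lists were chosen with earlier results of these data known, and the 22 lists described were picked after seeing values. Alternatives used DESeq2 1.42.0, limma 3.58.1 and sva 3.50.0, other scalings and filters, tissue scores as covariates, a replicate block and leaving out each library. Positions are from GENCODE M21, in which 19084 of the 19451 genes matched. Some named genes, among them Tap1, Tspo, Cyp51 and Chrnb2, overlap a gene on the opposite strand, with the limit given for D030047H15Rik. The CBD libraries were not tested here, and some genes that the rule names are not reported here.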

Additional observations from a re-analysis of the deposited data

Results flagged for a closer look

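In groups of 4 libraries, 10 of 180 gene and group combinations (90 named genes in GWVeh and GWVehLPS) held a library whose gap to the nearest other exceeded Dixon's 95% critical value, and chance flags about 1 in 20 groups. Groups of 3 were not tested. There were 3 in GWVeh and 7 in GWVehLPS. Fosl2 stood at 21.1 CPM in GWVeh replicate 2, against 28.5 to 29.6 CPM in the others, and at 25.01 CPM in GWVehLPS replicate 3, against 30.9 to 32.1 CPM. In both groups the library that stood apart was the lowest, on the side away from the unexposed libraries. GWVehLPS replicate 2 stood apart for 5 genes: D030047H15Rik (6.197 CPM, others 8.12 to 8.22), mt-Nd6 (1289 CPM, others 979 to 1031), Tra2a (75.8 CPM, others 95.2 to 96.3), Csnk1e (85.5 CPM, others 94.1 to 95.7) and Hap1 (252 CPM, others 231 to 233). GWVeh replicate 4 was lowest for Ntsr2 (113 CPM, others 134 to 138) and Gstt1 (11.5 CPM, others 14.1 to 14.2). Oas1a was highest in GWVehLPS replicate 4 (2.24 CPM, others 1.56 to 1.64).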

How the results depend on the processing

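At an adjusted p of 0.05 the pooled count of 0 (edgeR; 1269 at an unadjusted p under 0.05) became 17 with DESeq2, 7 with limma voom, 43 with no filter, 1 with upper-quartile scaling, 2 with 4 group means weighted equally, 6 over all 22 libraries, 3 with olfactory bulb and cerebellar scores, 2 with 1 surrogate variable and 2 in LPS libraries alone, and 8 at an adjusted p of 0.1. It stayed 0 with RLE scaling, a stricter filter, PBS libraries alone and a choroid plexus score (added after seeing the data). Leaving out 1 library gave 0 to 3: 3 without GWVeh replicate 1, GWVeh replicate 4 or GWVehLPS replicate 1, 2 without CtrlVeh replicate 3, CtrlVehLPS replicate 1, CtrlVehLPS replicate 3 or GWVehLPS replicate 2, and 1 without GWVeh replicate 2. Fosl2 passed in 17 of 28 alternatives (-0.53 to -0.37, adjusted p 5.31e-08 to 0.591). Without LPS the count was 6 with DESeq2 and 0 to 20 over left-out libraries (20 without GWVeh replicate 4, 2 without CtrlVehLPS replicate 1 or GWVehLPS replicate 2). Under LPS it was 23 with DESeq2, 1 over all 22 libraries and 0 to 1 over left-out libraries (CtrlVehLPS replicate 3, GWVehLPS replicate 2 or 4). The interaction gave 5 with DESeq2 and 0 to 2 over left-out libraries (2 without GWVeh replicate 4). Deviations of same-numbered libraries correlated weakly (19 pairs, -0.0902 to 0.0933, median 0.0121), as did those of 54 other pairs (-0.122 to 0.0874, median 0.0010). Of 14 libraries 8 correlated best with their own number, and whether the numbers mark a shared batch was not tested. A replicate block gave 3 pooled, 9 without LPS and 2 under LPS. Of 87 genes compared over the alternatives 77 kept their sign in every alternative. In LPS libraries alone Hap1 was -0.081, Ndufb6 -0.017, Scn1a 0.049 and Olfm3 0.25, and in PBS libraries alone Scn3a was 0.029, Ndufs5 0.0067, Cntnap3 0.30, Scn7a 0.21 and Gabra6 -0.44. Scn9a was -0.023 with voom and -0.039 with the choroid score. Scn7a was 0.088 with bulb and cerebellar scores, 0.052 with the surrogate variable and 0.14 with the choroid score. Over left-out libraries Olfm3 ran from -0.13 to 0.0012, Scn9a from -0.0079 to 0.16, Scn7a from -0.17 to 0.043 and Gabra6 from -0.12 to 0.33. The cause was not tested for any of these. Genes under about 0.175 CPM lie within the floor of 3 counts.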

Other observations

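Among lists not described above, 57 of 80 cytosolic ribosomal protein genes had positive pooled differences. At an unadjusted p under 0.05 (edgeR) there were 2 (2.5%, beside 6.52% of all genes). Without LPS 28 were higher and 0 lower (median 0.14), and under LPS 0 were higher and 1 lower (median -0.06). Over all genes 4.27% were higher and 3.61% lower without LPS, and 3.11% and 3.38% under LPS. Thalamic, midbrain and brainstem neuron genes had 25 positive of 27, with medians of 0.20 without LPS and 0.18 under LPS and 0 members at an unadjusted p under 0.05 in the pooled contrast. Genes of fibroblasts, meninges and collagens had 5 higher and 0 lower of 30 (16.7%, median 0.11). Olfactory bulb neuron genes had medians of 0.19 without LPS and -0.44 under LPS, with 7 lower of 18 under LPS.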
